A study of Mus musculus with 16 samples.

Results

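Syndecans and glypicans are the 2 families of cell-surface proteoglycans that carry heparan sulfate, and mice have 4 syndecan genes (Sdc1 to Sdc4) and 6 glypican genes (Gpc1 to Gpc6). They were found as the probes whose gene name in the scanner files is one of these 10 symbols, out of 34836 gene names on the array. The 10 genes were read by 13 probes, with 1 probe for each of 7 genes and 2 probes each for Gpc3, Gpc4 and Gpc5. The study profiled RNA of primary mouse myoblasts, the proliferating progeny of muscle satellite cells, on single-color Agilent arrays at 48 and 72 hr after isolation. All cells came from untreated male C57Bl/6J mice of 11 to 13 weeks. Dispersed myoblasts were cultured off the fiber on gelatin, with 1 mouse per preparation. Myofiber-associated myoblasts were cultured on explanted single fibers and stripped from them with trypsin, with 2 mice per preparation, and 1 of their 48-hr arrays carried a pool of 2 preparations. Each of the 4 groups of culture and time had 4 arrays, 16 in all, and the labels' source name calls every sample myofibres, so the growth type listed with each sample gave its culture.

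Heparan sulfate is a long sulfated sugar chain that binds growth factors such as fibroblast growth factors, hepatocyte growth factor, Wnts and chemokines, and can present them to their receptors. Syndecans span the membrane, and their short cytoplasmic tails bind PDZ proteins and link to the actin cytoskeleton. Glypicans are held at the surface by a lipid anchor and are known as regulators of hedgehog, Wnt and growth factor signaling. In muscle, syndecan-3 and syndecan-4 are surface markers of satellite cells and their progeny.

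The probes of the genes that the results turn on were 60-base oligonucleotides placed on the mouse genome build mm9. The position in exon or UTR was not annotated in the files and is not given here. Their last 30 bases, 5′ to 3′ as the scanner files list them, are shown, while the signal reads all 60. Gpc4 has a pair of probes whose levels disagreed. Capitals mark the part of a run of purines only, or of pyrimidines only, where the run is the longest in the probe and falls within these 30 bases.
Sdc2, A_51_P157255, chr15:32964204-32964263: attacagctgtaattcaccatgttaaaagg
Sdc3, A_52_P282741, chr4:130382015-130382074: GGAGGAGAGGGtcagatggataaagataaa
Gpc4, A_55_P1963434, chrX:49406560-49406619: acaacaatgtacagtttttactgtgtggcc
Gpc4, A_55_P1992495, chrX:49406100-49406159: ttgggTTTTCTTCCTTTCTTTCTTTCTCTC
The pyrimidine run of the Gpc4 probe A_55_P1992495 was 25 bases long, and 0.257% of all 55681 probes held a run of either kind at least that long. The purine run of the Sdc3 probe was 18 bases, a length reached by 0.817% of probes, while the median over all probes was 7. G and C made up at most 53.3% of any of the 13 probes, with a median of 36.7% against 43.3% over all probes.

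Upstream windows of the start site, from RefSeq on GRCm38.p6, were found for 7 of the 10 genes, all but Sdc2, Gpc1 and Gpc6. The 250 bases before the start are shown for Sdc3, whose time change differed between the cultures, and for Sdc1, whose time changes were close in both, on the plus strand of each gene and 5′ to 3′. Capitals mark E-boxes (CANNTG, the letters that muscle regulatory factors of the MyoD family bind, the same on both strands) and GC boxes (GGGCGG, or CCGCCC on the other strand).
Sdc3, chr4:130792287-130792536: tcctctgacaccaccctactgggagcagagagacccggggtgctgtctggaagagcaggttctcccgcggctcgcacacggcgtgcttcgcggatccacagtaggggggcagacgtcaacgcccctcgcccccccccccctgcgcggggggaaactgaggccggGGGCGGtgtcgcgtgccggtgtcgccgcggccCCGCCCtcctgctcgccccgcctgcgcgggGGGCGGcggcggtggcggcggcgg
Sdc1, chr12:8771146-8771395: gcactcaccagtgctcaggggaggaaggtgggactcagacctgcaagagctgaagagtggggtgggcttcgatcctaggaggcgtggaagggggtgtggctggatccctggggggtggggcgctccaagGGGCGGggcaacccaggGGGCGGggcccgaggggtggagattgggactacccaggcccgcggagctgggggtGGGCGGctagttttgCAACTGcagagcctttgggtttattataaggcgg
The Sdc3 window held 3 GC boxes and 0 E-boxes, and the Sdc1 window 3 GC boxes and 1 E-box. All 7 windows held a GC box, which 32.7% of all 32851 windows of this length hold. An E-box was held by 2 of 7 (Sdc1 and Gpc2), against 66.2% of all windows. G and C made up 66.0% to 76.4% of the member windows, except Gpc5 at 51.2%, against a median of 52.4% over all windows. The part of base composition in these shares was not tested. In the same annotation no protein-coding gene lies between Gpc3 and Gpc4 on chromosome X, nor between Gpc5 and Gpc6 on chromosome 14.

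The array held 59305 spots for genes, of which 0 were saturated, and 54.0% to 63.5% of probes were well above background on an array. All 8 myofiber-associated arrays lay on 1 slide and all 8 dispersed arrays on another, scanned in another session, so that a slide effect cannot be told apart from one of culture. On the log2 scale a gene's SD over the 4 arrays of a group had a median of 0.09 (48 hr) and 0.10 (72 hr) for dispersed cells, and of 0.22 and 0.18 for myofiber-associated cells. Myoblast markers were present in every group (9 or 10 of 10 above background on all 4 arrays, and Msc, which encodes musculin, on none of the 72-hr arrays). Adult fiber markers such as Ckm and Acta1 were strong in myofiber-associated samples, although the labels describe these as free of fiber RNA. Summed over 10 genes, their signal ranged from 1710000 to 2270000 on the 48-hr arrays and from 343000 to 1630000 on the 72-hr arrays, against 20900 to 54000 and 11300 to 14300 in dispersed myoblasts. Endothelial markers fell in both cultures (9 of 10 in dispersed and 7 of 10 in myofiber-associated cells), from a sum of 105000 to 141000 to one of 38500 to 54900 in dispersed myoblasts and from 19800 to 41400 to 12500 to 15200 in myofiber-associated myoblasts. Fibroblast sums went from 86500 to 121000 to 58700 to 94200 off the fiber (1 of 8 lower) and from 80100 to 190000 to 39300 to 67100 on it (3 of 8 lower), the 190000 being the pooled array. Schwann cell sums went from 4270 to 5490 to 2120 to 2710 off the fiber (4 of 5 tested lower) and from 916 to 1210 to 682 to 1150 on it (0 of 5). Pericyte and smooth muscle sums went from 38700 to 72600 to 46800 to 87800 off the fiber (3 of 7 lower). On it they went from 8500 to 11000 to 6620 to 10400 (1 of 7 lower). Leukocyte sums went from 16400 to 19400 to 15600 to 17200 off the fiber (1 of 6 tested lower). On it they went from 22000 to 30300 to 16800 to 21000 (0 of 6). For a gene of such a mixture, fewer cells of a type and less RNA per cell cannot be told apart. These sums differed with time or culture, as did several values below, and their part in those values was not tested.

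All 10 genes were tested, and 10 of the 13 probes were well above background on all 16 arrays. The probe of Gpc2 was above background on 14 arrays, all but dispersed 48-hr replicate 1 and myofiber-associated 48-hr replicate 9. The second probes of Gpc3 (A_55_P2165344) and of Gpc5 (A_66_P125538) were above background on 0 arrays and were not tested. Values are log2 normalized signals, each gene is read by its brightest probe, and no level is set against that of another gene. Adjusted p are Benjamini-Hochberg values over all 20317 genes from limma's two-sided moderated test, with a threshold of 0.01. With 4 against 4 arrays an exact permutation test cannot give a two-sided p below 0.0286, which it reaches when the groups do not overlap.

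**Figure D1:**
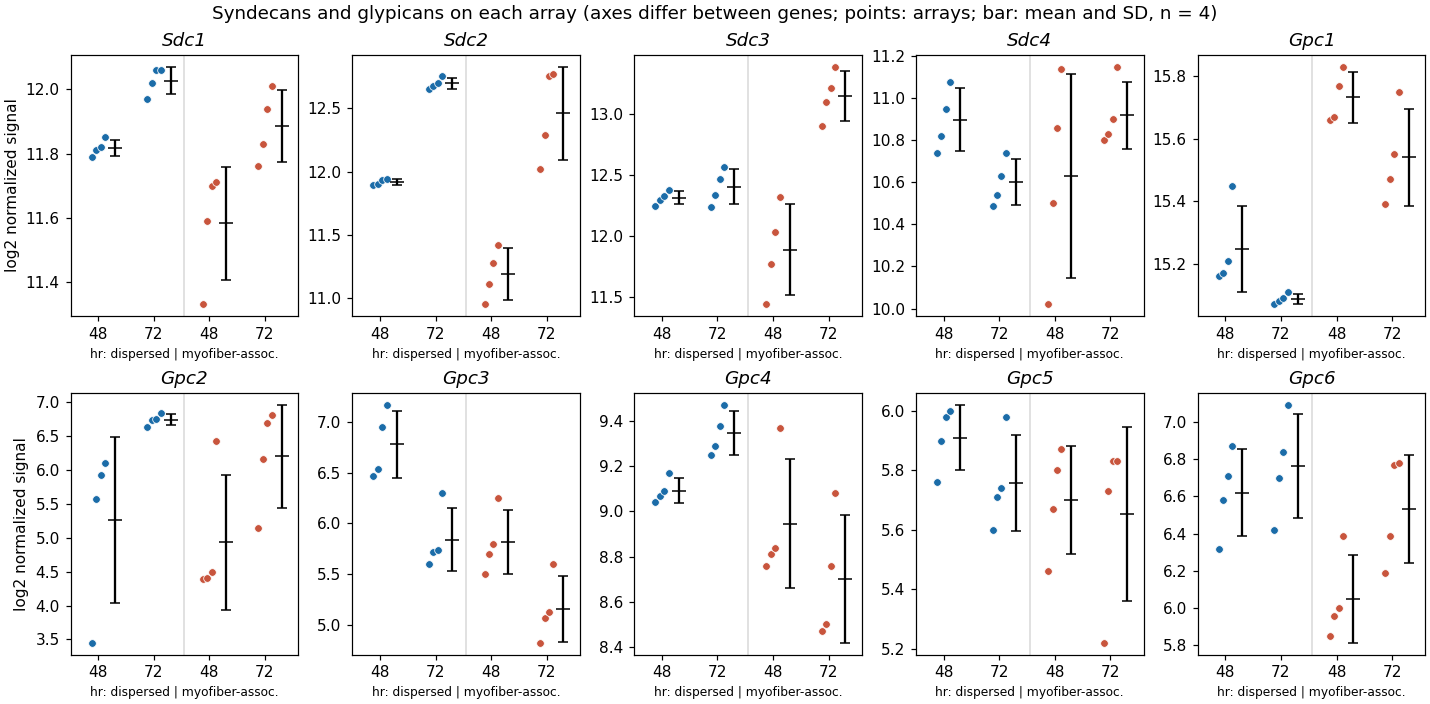
Log2 normalized signal of each gene's brightest probe on each of the 16 arrays (points), by culture and time, with the group mean and SD (bars, n = 4); each gene has its own vertical axis. Sdc3 stood between 12.90 and 13.39 on the 4 arrays of myofiber-associated cells at 72 hr and at 12.57 or below on the other 12, whereas Sdc2 was higher at 72 hr in both cultures.

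Sdc2 was higher at 72 than at 48 hr in both cultures, and Sdc3 rose on the fiber, where its time change exceeded that off the fiber. Sdc1 rose slightly, by 0.21 past the threshold in dispersed myoblasts and by 0.30 short of it on the fiber. No glypican passed the threshold in either culture. In dispersed myoblasts 2 of 10 members were called higher (7.38% of all genes tested) and 0 lower (6.32% of all genes). An unadjusted p under 0.05 was found for 7 members, against 38.6% of all genes. In myofiber-associated myoblasts 2 of 10 were called higher (3.74% of all genes) and 0 lower (1.74%), with 6 at an unadjusted p under 0.05, against 41.4% of all genes. The median log2 change of the 10 genes was 0.12 in dispersed and 0.30 in myofiber-associated myoblasts, against 0.02 and 0.06 over all genes. The arrays of the 2 times did not overlap for 7 of the 10 genes in dispersed myoblasts (31.2% of all genes) and for 3 of 10 in myofiber-associated myoblasts (26.3%). At the level of single probes, 2 of the 11 tested probes of the family passed in dispersed myoblasts (12.4% of all probes), 2 did so in myofiber-associated cells (5.43%), and the difference between the cultures passed for 1 (3.12%); these were the brightest probes of the genes named below.

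Syndecan-3, the product of Sdc3, is a long-chain syndecan of nerve and muscle that marks satellite cells. In myofiber-associated myoblasts its log2 signal was 11.44, 11.77, 12.03 and 12.32 on the 48-hr arrays and 12.90, 13.10, 13.22 and 13.39 on the 72-hr arrays. All 72-hr arrays were above all 48-hr arrays. The mean went from 11.89 ± 0.37 to 13.15 ± 0.21 (SD, n = 4 arrays), a rise of 1.26 (SE 0.19) or 2.4-fold, with an adjusted p of 0.00528 in limma and an exact permutation p of 0.0286. In dispersed myoblasts the signal was 12.25, 12.30, 12.33 and 12.38 at 48 hr and 12.24, 12.34, 12.47 and 12.57 at 72 hr. The lowest 72-hr array lay under the lowest 48-hr array, and the 2 times overlapped. The mean was 12.32 ± 0.05 and 12.41 ± 0.14 (SD, n = 4), a difference of 0.09 with a 95% interval of -0.08 to 0.26 (limma adjusted p = 0.434).

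The study asked whether the change with time differs with the niche, and the comparison for it is the difference between the 2 time changes, dispersed minus myofiber-associated, which is the log2 of the study's comparative ratio (CR). For Sdc3 it was -1.17 (SE 0.22, 95% interval -1.64 to -0.71, limma adjusted p = 0.00483). From these same arrays and this ratio, the study had already listed Sdc3 among self-renewal genes that rose on the fiber and not off it. Sdc3 was the 1 member of 10 to pass here, and 3.45% of all genes passed in either direction. Without 1 array the difference ranged from -1.32 to -1.02 and its adjusted p from 0.000814 to 0.0131, with 6 of 16 such fits past the threshold. The call was lost without myofiber-associated 72-hr replicate 1 or 3 or 48-hr replicate 7, without dispersed 72-hr replicate 5, 6 or 7, and without any one of the 4 dispersed 48-hr arrays. The rise on the fiber ranged from 1.11 to 1.40 without 1 array, with adjusted p of 0.00248 to 0.0218 and 2 of 8 fits past the threshold. Those 2 fits were the ones without the pooled 48-hr array or without 72-hr replicate 4. With the slide row as a block the rise stayed at 1.26 and its adjusted p was 0.0113, and with no filter on low signal the adjusted p was 0.0145 for the rise and 0.0103 for the difference.

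On the myofiber-associated arrays the summed adult fiber marker signal was lower at 72 hr, whereas Sdc3 and Sdc2 were higher. Within a time the order of Sdc3 was opposite only in part. The 48-hr array at 2270000 had a Sdc3 signal of 11.77, above the 11.44 of the one at 2200000. Among the myofiber-associated 48-hr arrays, the one with the lowest sum, 1710000, had the highest Sdc3, 12.32, and the highest Sdc2, 11.42. Among the 72-hr arrays the pair with the lowest sums, 343000 and 495000, had the highest Sdc3, 13.22 and 13.39. The 72-hr array with the highest sum, 1630000, had a Sdc3 signal of 12.90, above the 12.32 of the 48-hr array at 1710000. Sdc2 ran opposite to the sum on all myofiber-associated 48-hr arrays, at 11.42, 11.28, 11.11 and 10.95 for rising sums. At 72 hr Sdc2 was 12.76, 12.77, 12.29 and 12.02 for rising sums, opposite except within the pair with the lowest sums. From 48 to 72 hr the median of the 10 fiber markers moved by -1.87 (log2), and 1 of 10 (Myh2) was lower past the threshold. Of 9 tested myoblast markers, 3 rose past the threshold over the same interval (Pax7, Cdh15 and Chrna1) and 0 fell. The median of the 9 was 0.59, with 6 above 0 and Des (-0.95), Myog (-0.64) and Itga7 (-0.08) below it. The summed signal of the list on the fiber went from 203000 to 290000 at 48 hr to 309000 to 333000 at 72 hr. This linear sum weighs the brightest genes most. The brightest at 72 hr was Chrna1, whose mean log2 signal went from 15.65 to 17.02. In dispersed myoblasts 4 of the 9 markers rose past the threshold and 0 fell, with a median of 0.31. The change of Myog there was 3.92 (limma adjusted p = 4.79e-05). The part of these shifts in the rise of Sdc1, Sdc2 and Sdc3 was not tested.

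**Figure D2:**
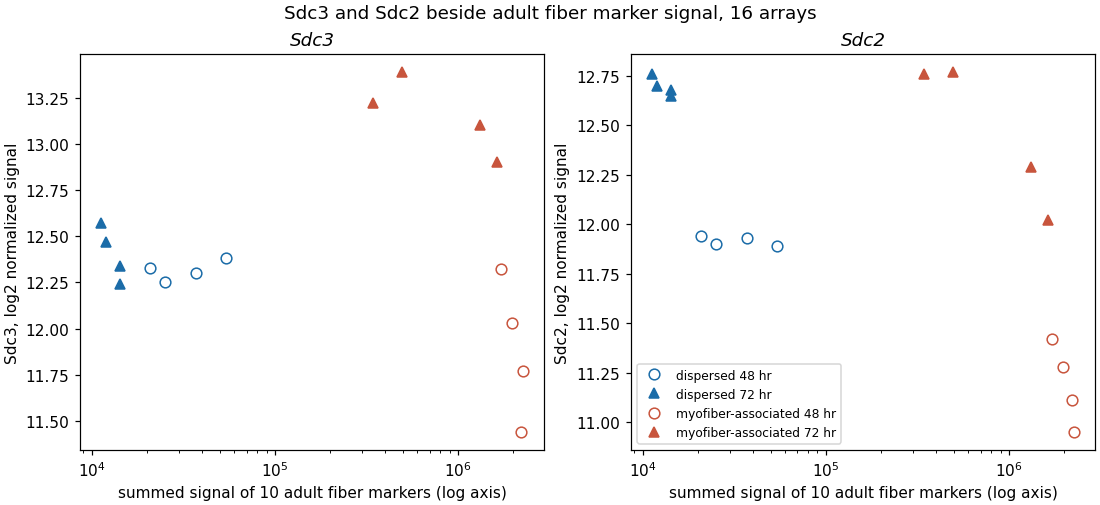
Log2 normalized signal of Sdc3 (left) and Sdc2 (right) on the 16 arrays against the summed normalized signal of 10 adult fiber markers (log axis); open circles are 48-hr arrays and triangles 72-hr arrays, blue for dispersed and red for myofiber-associated myoblasts. The myofiber-associated arrays lie at sums of 343000 to 2270000, where both genes are higher on the 72-hr arrays, and the dispersed arrays at 11300 to 54000.

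The genes whose 4 group means, each centered on the gene's own mean, lay nearest to those of Sdc3 were Htra3, a secreted serine protease (root mean square distance 0.019 on the log2 scale), Brd8, a bromodomain protein (0.059), and Gas6, a ligand of the TAM receptor kinases (0.063). In myofiber-associated myoblasts the mean log2 signal went from 8.17 to 9.44 for Htra3 and from 12.05 to 13.26 for Gas6. In dispersed myoblasts it went from 8.56 to 8.70 for Htra3 and from 12.40 to 12.39 for Gas6.

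Syndecan-2, the product of Sdc2, is a short syndecan of mesenchymal cells. In dispersed myoblasts Sdc2 was 11.89, 11.90, 11.93 and 11.94 at 48 hr and 12.65, 12.68, 12.70 and 12.76 at 72 hr. The 2 times were far apart against their spread, with means of 11.92 ± 0.03 and 12.70 ± 0.05 (SD, n = 4). The change was 0.78 (SE 0.04) or 1.72-fold, with a limma adjusted p of 3.14e-05 and 8.44e-06 to 0.00314 over its alternatives. In myofiber-associated myoblasts Sdc2 was 10.95, 11.11, 11.28 and 11.42 at 48 hr and 12.02, 12.29, 12.76 and 12.77 at 72 hr. Again no array of 1 time overlapped the other, with a wider spread at 72 hr (SD 0.37). The change was 1.27 (SE 0.19) or 2.42-fold, with a limma adjusted p of 0.00514. Without 1 array it was 1.17 to 1.42 with adjusted p of 0.003 to 0.0199, and 2 of 8 fits passed, those without the pooled 48-hr array or without 72-hr replicate 4. With the slide row as a block it stayed at 1.27 with an adjusted p of 0.0115, and with no filter on low signal the adjusted p was 0.014. Dispersed minus myofiber-associated, the time changes differed by -0.49 (95% interval -0.93 to -0.05), which did not pass (limma adjusted p = 0.108).

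Syndecan-1, an epithelial syndecan that is also present on proliferating myoblasts, is the product of Sdc1. Its signal in dispersed myoblasts was 11.79, 11.81, 11.82 and 11.85 at 48 hr and 11.97, 12.02, 12.06 and 12.06 at 72 hr. The change was small but larger than the spread, at 0.21 (SE 0.04) or 1.16-fold, with a limma adjusted p of 0.00612. Of the 8 fits without 1 array, 2 passed, those without 48-hr replicate 1 or 72-hr replicate 8, and the adjusted p reached 0.0225 when 48-hr replicate 3 was left out. In one fit of all 16 arrays, which shares the wider spread of the myofiber-associated arrays, the call was lost at the same size (adjusted p = 0.126). On the fiber the arrays did not overlap either, at 11.33 to 11.71 and 11.76 to 12.01. There the change was 0.30 (SE 0.11, limma adjusted p = 0.0841). Dispersed minus myofiber-associated, the time changes differed by -0.09 with a 95% interval of -0.34 to 0.16.

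Syndecan-4, a widely expressed focal adhesion component that marks satellite cells, is the product of Sdc4. In dispersed myoblasts Sdc4 was 10.74, 10.82, 10.95 and 11.08 at 48 hr and 10.49, 10.54, 10.63 and 10.74 at 72 hr. The times did not overlap, although the lowest 48-hr and the highest 72-hr array both round to 10.74. The change was -0.30 (SE 0.09, limma adjusted p = 0.0357). In myofiber-associated myoblasts Sdc4 was 10.02, 10.50, 10.86 and 11.14 at 48 hr, the widest spread of the 4 syndecans (SD 0.48), and 10.80, 10.83, 10.90 and 11.15 at 72 hr. The times overlapped, and the change was 0.29 (95% interval -0.23 to 0.81). The time changes of the cultures differed by -0.59 (95% interval -1.13 to -0.04, limma adjusted p = 0.122).

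**Figure D3:**
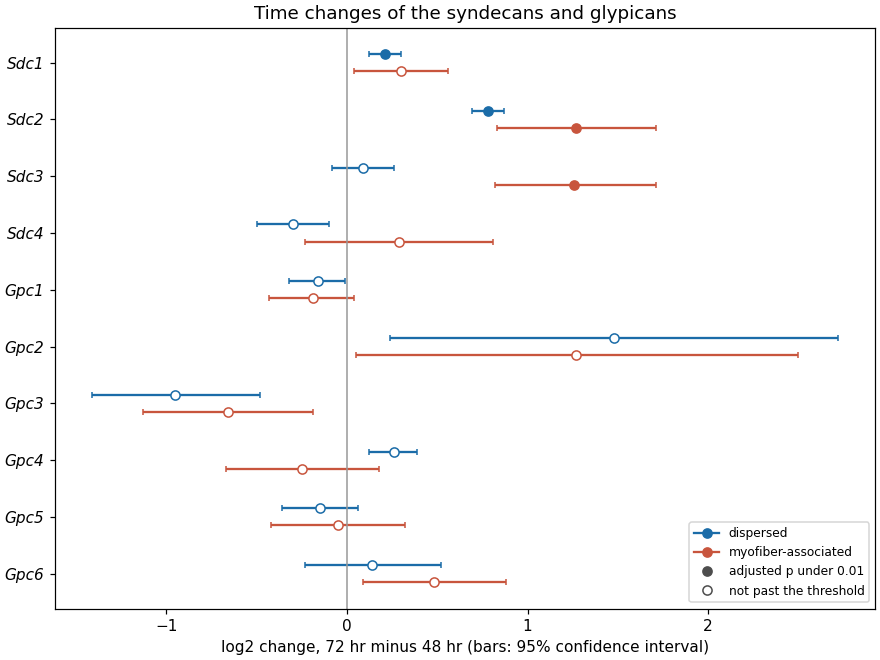
Log2 change from 48 to 72 hr of each gene in dispersed (blue) and myofiber-associated (red) myoblasts, with 95% confidence intervals from limma; filled points passed an adjusted p of 0.01. Sdc2 is filled in both cultures, Sdc1 in dispersed and Sdc3 in myofiber-associated myoblasts, and no glypican is filled.

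Among the glypicans, Gpc3 and Gpc2 had the largest estimates, in opposite directions. Glypican-3 is an X-linked regulator of hedgehog and growth signaling. In dispersed myoblasts Gpc3 was 6.47, 6.54, 6.95 and 7.17 at 48 hr and 5.60, 5.72, 5.74 and 6.30 at 72 hr. All 72-hr arrays were below all 48-hr arrays, and the change of -0.95 (SE 0.20, 95% interval -1.41 to -0.48) stood just outside the threshold with a limma adjusted p of 0.011. In 4 of its 16 alternatives Gpc3 passed. Its estimate ran from -1.10 without 72-hr replicate 6 (adjusted p = 0.00595) to -0.55 with normexp background correction (0.00873). In myofiber-associated myoblasts it was 5.50, 5.70, 5.80 and 6.25 at 48 hr and 4.82, 5.06, 5.12 and 5.60 at 72 hr. The highest 72-hr array lay within the 48-hr range, and the change was -0.66 (SE 0.21, limma adjusted p = 0.0516), or -0.29 with normexp. The other Gpc3 probe read 1.97 to 2.09 on all arrays.

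Glypican-2 is a glypican of the developing nervous system. In dispersed myoblasts Gpc2 was 3.45, 5.57, 5.93 and 6.11 at 48 hr and 6.64, 6.74, 6.75 and 6.85 at 72 hr. The 72-hr arrays were all higher, and the lowest 48-hr array was the one not above background. The change was 1.48 with a 95% interval of 0.24 to 2.72 (limma adjusted p = 0.0776). Without 48-hr replicate 1 it was 0.87 with an adjusted p of 0.00375. In myofiber-associated myoblasts Gpc2 was 4.39, 4.41, 4.50 and 6.43 at 48 hr and 5.15, 6.16, 6.69 and 6.81 at 72 hr. A single 48-hr array, replicate 7, lay within the 72-hr range, and the change was 1.27 (95% interval 0.05 to 2.50, limma adjusted p = 0.11).

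Glypican-4, the X-linked neighbor of glypican-3, binds fibroblast growth factor 2 and acts in Wnt signaling. At its brighter probe, Gpc4 in dispersed myoblasts was 9.04, 9.07, 9.09 and 9.17 at 48 hr and 9.25, 9.29, 9.38 and 9.47 at 72 hr. The times did not overlap, and the change was 0.26 (SE 0.06, limma adjusted p = 0.0147). In myofiber-associated myoblasts it was 8.76, 8.81, 8.84 and 9.37 at 48 hr and 8.47, 8.50, 8.76 and 9.08 at 72 hr. The highest 48-hr array was the pool of 2 preparations, and the change was -0.25 (95% interval -0.67 to 0.18). At the probe with the pyrimidine run shown above, the changes were 0.29 (95% interval -0.07 to 0.64) in dispersed and -0.32 (-0.56 to -0.07) in myofiber-associated myoblasts. The difference between the time changes was 0.50 (SE 0.20, limma adjusted p = 0.102 over all probes) at the brighter and 0.60 (SE 0.19, adjusted p = 0.0496) at the dimmer probe. Both probes thus gave a higher signal with time off the fiber and a lower one on it, and at neither did the difference pass 0.01.

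For Gpc1, Gpc5 and Gpc6 no time change and no difference between time changes passed the threshold. Glypican-1, a glypican of muscle and brain, had a Gpc1 signal of 15.16, 15.17, 15.21 and 15.45 at 48 hr and 15.07, 15.08, 15.09 and 15.11 at 72 hr in dispersed myoblasts. The times did not overlap there, with a change of -0.16 (limma adjusted p = 0.119), and overlapped in myofiber-associated myoblasts, with a change of -0.19 (95% interval -0.43 to 0.04). Gpc5 changed by -0.15 (95% interval -0.36 to 0.06) in dispersed and by -0.05 (-0.42 to 0.32) in myofiber-associated myoblasts. Its sign in myofiber-associated myoblasts turned in 5 of 16 alternatives. Gpc6 changed by 0.14 (95% interval -0.23 to 0.52) and 0.48 (0.09 to 0.88, limma adjusted p = 0.0736). For the difference between the time changes the 95% intervals were -0.22 to 0.28 for Gpc1, -1.53 to 1.94 for Gpc2, -0.93 to 0.36 for Gpc3, -0.51 to 0.31 for Gpc5 and -0.87 to 0.19 for Gpc6.

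Between the cultures, Gpc1 was higher and Gpc3 lower in myofiber-associated myoblasts, and Sdc3 went from a mean below that of dispersed myoblasts to one above it. At 48 hr, 1 of the 10 members was called higher in myofiber-associated myoblasts (19.1% of all genes) and 2 lower (32.5%). At 72 hr, 2 were called higher (12.9%) and 1 lower (18.4%). The median difference of the 10 members was -0.30 at 48 hr and -0.18 at 72 hr, against -0.12 and -0.02 over all genes. Because each culture had its own slide and the myofiber-associated samples held the fiber marker signal given above, these values compare samples as arrayed.

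Gpc1 was 15.66, 15.67, 15.77 and 15.83 on the myofiber-associated 48-hr arrays and 15.39, 15.47, 15.55 and 15.75 on the 72-hr arrays. At 48 hr all of these exceeded all dispersed arrays, and the same held at 72 hr. The differences were 0.48 (SE 0.08, limma adjusted p = 0.000182) and 0.45 (SE 0.08, adjusted p = 0.000578), and Gpc1 passed under all 22 alternatives at each time. Gpc3 was lower by a log2 difference of -0.97 (SE 0.21, limma adjusted p = 0.00118) at 48 hr and -0.69 (SE 0.21, adjusted p = 0.017) at 72 hr, with no overlap at either time. Both were smaller with normexp background correction, at -0.53, which still passed, and -0.26, which did not. The 72-hr difference passed in 1 of 21 alternatives, without myofiber-associated 72-hr replicate 3 (-0.84, adjusted p = 0.00598), and its adjusted p reached 0.129 with 75th percentile scaling.

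Sdc3 differed by -0.43 (limma adjusted p = 0.0246) at 48 hr, where the cultures overlapped, and by 0.75 (SE 0.15, 1.68-fold, adjusted p = 0.00127) at 72 hr, where every myofiber-associated array was higher. The 48-hr difference was -0.57 (adjusted p = 0.00208) without the pooled array and -0.28 (0.0863) without myofiber-associated 48-hr replicate 9. Sdc2 was lower on the fiber at 48 hr by -0.73 (SE 0.15, limma adjusted p = 0.000568) and differed by -0.24 (95% interval -0.55 to 0.07) at 72 hr. Gpc4 was lower on the fiber at 72 hr by -0.65 at its brighter probe (SE 0.14, limma adjusted p = 0.00215 over genes). At its dimmer probe this difference was -0.18 (95% interval -0.47 to 0.11), and for the mean of both probes -0.41 (adjusted p = 0.00172). At 48 hr the probes disagreed in sign, with -0.14 at the brighter and 0.43 (limma adjusted p = 0.0134) at the dimmer probe. Gpc6 was at -0.57 (adjusted p = 0.0109) at 48 hr, just outside the threshold, and passed in 5 of its 22 alternatives. Sdc1, Sdc4, Gpc2 and Gpc5 passed at neither time, with limma adjusted p of 0.0215, 0.21, 0.625 and 0.194 at 48 hr and 0.163, 0.161, 0.463 and 0.553 at 72 hr.

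**Figure D4:**
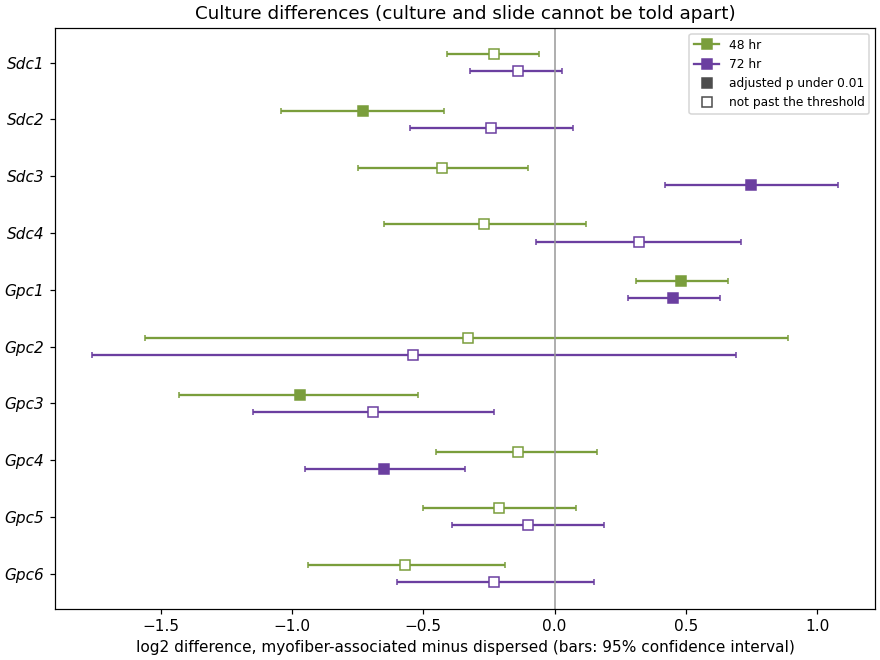
Log2 difference of each gene between the cultures, myofiber-associated minus dispersed, at 48 hr (green) and 72 hr (purple), with 95% confidence intervals from limma; filled squares passed an adjusted p of 0.01. Gpc1 lies above 0 and Gpc3 below 0 at both times, and Sdc3 moves from -0.43 to 0.75.

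The proteoglycans work with enzymes that build and edit their chains, with proteases that release them and with the ligands they bind. These were read through 7 lists of 83 genes in all, of which 71 were tested. In dispersed myoblasts 11 of the 71 rose (7.38% of all genes did) and 6 fell (6.32%), with a median of -0.05 against 0.02 over all genes. In myofiber-associated myoblasts 3 rose (3.74% of all genes) and 6 fell (1.74%), with a median of 0.08 against 0.06. For the difference between the cultures 1 lay above 0 (1.09% of all genes) and 4 below it (2.36%) past the threshold, with a median of -0.10 against -0.07.

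Of the 11 genes of linker and chain synthesis, 1 fell in each culture and 0 rose. This was Extl1, an exostosin-like glycosyltransferase, which changed by -0.62 (limma adjusted p = 0.00957) in dispersed and by -1.73 (0.00503) in myofiber-associated myoblasts. Of 9 tested genes of chain sulfation and epimerization, 2 rose in dispersed myoblasts. These were Ndst3, an N-deacetylase and N-sulfotransferase (1.02, limma adjusted p = 4e-05), and Hs6st1, a 6-O-sulfotransferase (0.41, 0.00289). In myofiber-associated myoblasts 0 of the 9 passed, and the median was 0.26. There Ndst3 changed by 1.32 (limma adjusted p = 0.0217) and Hs6st1 by 0.26 (0.118). Of 11 genes of chain trimming and breakdown, 2 rose in dispersed myoblasts and 0 passed in myofiber-associated myoblasts. Both were extracellular 6-O-endosulfatases, which remove 6-O-sulfates from finished chains, Sulf2 (0.95, limma adjusted p = 6.18e-05) and Sulf1 (0.42, 0.00996). On the fiber the estimates were larger, at 1.54 for Sulf2 (limma adjusted p = 0.0116) and 0.89 for Sulf1 (0.0187). Their SE was larger too, at 0.30 and 0.20 against 0.06 and 0.09 in dispersed myoblasts.

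Among 7 other proteins that carry heparan sulfate or heparin, Cd44, a hyaluronan receptor, rose in dispersed myoblasts (0.35, limma adjusted p = 0.0039) and Nrp1, the neuropilin co-receptor of semaphorins and VEGF, fell (-0.49, 0.00203). On the fiber Cd44 changed by 0.43 (limma adjusted p = 0.0304). Nrp1 was the 1 gene of that list whose difference between the time changes passed the threshold (-0.95, limma adjusted p = 0.00899). Wider gaps between the estimates did not pass. They were found for Col18a1 (-0.28 in dispersed and 1.57 in myofiber-associated myoblasts), Srgn (-0.06 and -1.69) and Tgfbr3 (-0.46 and -1.65). Tgfbr3, or betaglycan, a TGF-beta co-receptor, fell in myofiber-associated myoblasts (-1.65, limma adjusted p = 0.00404). Of 9 tested intracellular partners of syndecans, 3 rose in dispersed myoblasts. They were Ezr, which encodes the membrane-actin linker ezrin (0.43, limma adjusted p = 0.00146), Cttn, which encodes cortactin (0.40, 0.000361), and the Rac exchange factor Tiam1 (0.36, 0.00101). In myofiber-associated myoblasts Tiam1 rose too (0.64, limma adjusted p = 0.00689), and Sdcbp2, which encodes syntenin-2, fell (-1.04, 0.00966). Ezr (0.66, limma adjusted p = 0.0393) and Cttn (0.86, 0.0113) had larger estimates there than in dispersed myoblasts but did not pass. The Sdcbp2 change differed between the cultures by 1.19 (limma adjusted p = 0.00958). Of 8 tested genes of shedding and glypican release, 1 passed in each culture. This was the metalloproteinase inhibitor Timp3, which fell by 0.92 in dispersed and by 2.22 in myofiber-associated myoblasts (limma adjusted p of 0.00694 and 0.00165).

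Of 16 tested ligands and signaling receptors, 3 rose and 3 fell in dispersed myoblasts. Among those past the threshold the largest changes were in Fn1, which encodes fibronectin (0.91, limma adjusted p = 0.00101), in the GDNF receptor kinase Ret (0.88, 0.000379), in its ligand Gdnf (-0.80, 6.09e-05) and in the Wnt receptor Fzd7 (0.53, 0.000261). In myofiber-associated myoblasts 2 rose and 2 fell. These were the fibroblast growth factor receptor Fgfr4 (2.22, limma adjusted p = 0.00141), Ret (1.26, 0.00244), Gdnf (-1.37, 0.00756) and Fgf2 (-1.33, 0.00124). The difference between the time changes passed the threshold for Fgfr4 (-2.12, limma adjusted p = 0.00109), for the chemokine Cxcl12 (-1.47, 0.00376) and for Mdk, which encodes the heparin-binding growth factor midkine (-0.88, 0.00697). All 3 lay below 0, the direction of the Sdc3 difference, which was also the more common one. Over all genes 480 passed below 0 and 221 above it.

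**Figure D5:**
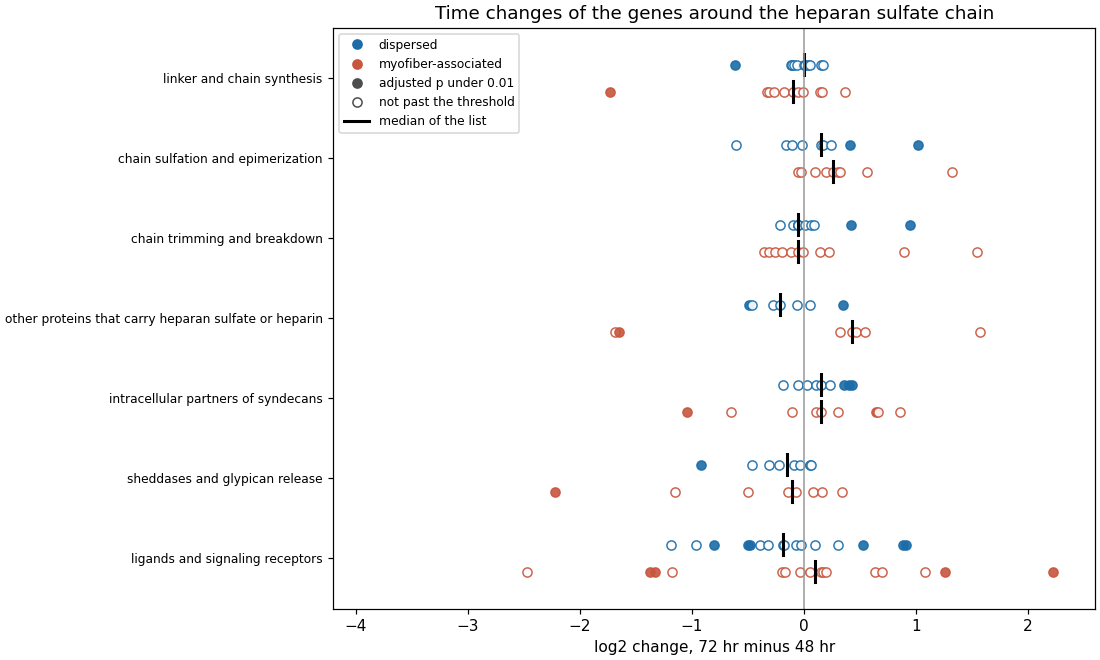
Log2 change from 48 to 72 hr of the 71 tested genes of the 7 lists in dispersed (blue) and myofiber-associated (red) myoblasts; filled points passed an adjusted p of 0.01 and black bars are the medians of the lists. The medians lie between -0.21 and 0.43, and the filled points are few in each list.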

How the data were processed

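RNA from 16 samples was hybridized to single-color arrays. Per the file headers, the deposited intensity of a spot is its processed signal, background-corrected by Feature Extraction 11.0.1.1. The authors also deposited log2 ratios that set every 72-hr array against the 48-hr arrays of the same culture, background-corrected, loess- and quantile-normalized according to the study's methods. Across genes its mean ratios correlated with the changes computed here at r = 0.988 and 0.985.

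Here outlier spots, as called by the scanner software, were removed, and log2 processed signals were loess-normalized (span 0.3, 4 iterations), the reference being the 48-hr mean of the same culture. Quantile normalization over all 16 arrays followed, with identical probes averaged and the brightest probe kept for each gene. A median log2 signal of at least 5 was required, which kept 20317 genes. The number of arrays limits the precision.

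Within a culture the 2 times were compared on 8 arrays, and the difference between time changes and between cultures on 16, with limma (two-sided), Benjamini-Hochberg adjustment over all genes or probes and a threshold of 0.01. The fit of 16 arrays assumed a common spread of a gene over all groups, although spreads were wider in myofiber-associated cells. The SAM test of the study was not used here. Replicates were separate preparations. Alternatives were normexp background correction (offset 50), 75th percentile scaling, quantile normalization alone, other low-signal filters, the mean of all probes, a block for slide row, a single fit of all 16 arrays, the deposited table and each array left out in turn. The procedure was also run on simulated data. Each gene there had the same spread in every group, so unequal spreads like those found here were not covered.

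The members and the gene lists were chosen with earlier results of these data known. All members were named, and from each list the genes past the threshold, at most 4 per comparison by size, with the 3 genes nearest in pattern to the member with the largest difference between time changes. The software was Python 3.11.15 with matplotlib 3.10.9, and R 4.3.3 with limma 3.58.1.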

Additional observations from a re-analysis of the deposited data

Results flagged for a closer look

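Of 44 groups of 4 arrays examined over the 11 tested probes, 4 held an array whose gap to the nearest other exceeded Dixon's critical share of the group's range at the 95% level, and chance alone gives about 1 in 20. For Gpc2, myofiber-associated 48-hr replicate 7 was the highest of its group at a log2 signal of 6.43, with the next at 4.50. For the brighter Gpc4 probe, the pooled array, replicate 10-11, was the highest of the same group at 9.37 against 8.84. For the dimmer Gpc4 probe the highest was replicate 9, at 5.76 against 5.56. For Gpc5, myofiber-associated 72-hr replicate 4 was the lowest at 5.22 against 5.73. All 4 lay in myofiber-associated groups. The time change of Sdc3 differed between the cultures in the interaction test, with a log2 difference of -1.17 (dispersed minus myofiber-associated).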

How the results depend on the processing

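Over 25 alternative settings, the 50 values of the 10 genes in 5 comparisons gave 1000 results, of which 938 kept their direction and side of the threshold, 34 lost the threshold, 16 gained it and 12 turned sign, none of them in a value past the threshold. The cause of these moves was not tested. The sign turned for the Gpc5 change in myofiber-associated myoblasts (0.0037 with normexp, 0.04 with 75th percentile scaling, 0.0034 in the deposited table, 0.10 and 0.0079 without 72-hr replicate 4 or 48-hr replicate 8), for Gpc5 between cultures at 72 hr (0.14 with 75th percentile scaling, 0.04 without myofiber-associated 72-hr replicate 4) and for Gpc4 at 48 hr (0.14 with the mean of all probes). It turned for the difference between time changes of Gpc1 (-0.02 without myofiber-associated 72-hr replicate 1) and Gpc2 (-0.14, -0.29 and -0.40 without myofiber-associated 72-hr replicate 4, 48-hr replicate 7 and dispersed 48-hr replicate 1). Over all fits without 1 array these values ran from -0.13 to 0.10 and from -0.16 to 0.04 for Gpc5, from -0.02 to 0.10 for Gpc1 and from -0.40 to 0.49 for Gpc2.

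The members called in dispersed myoblasts numbered 1 in one fit of 16 arrays and 4 in the deposited table, which carries no 48-hr spread, against 2. In myofiber-associated myoblasts 0 were called, against 2, with no filter on low signal and with the slide row as a block. For the difference between time changes the count was 0 with no filter, where more genes share the adjustment, and 2 in the deposited table, against 1. With no filter the probes called were 1, 0 and 0 in dispersed, in myofiber-associated and for the difference. The genes of the 7 lists called numbered 4 in dispersed and 26 in myofiber-associated myoblasts in one fit of 16 arrays, 5 (myofiber-associated) and 3 (difference) with no filter, and 19 and 16 in the deposited table, against 17, 9 and 5. With 1 array left out, the members called were 1 to 3 in dispersed myoblasts, 0 to 2 in myofiber-associated myoblasts, 0 to 1 for the difference, 3 to 5 between cultures at 48 hr and 3 to 4 at 72 hr. The probes called were 1 to 2, 0 to 2 and 0 to 1, and the genes of the lists 11 to 16, 3 to 13 and 1 to 11. The lowest counts of list genes were without dispersed 48-hr replicate 4 (11 and 1) and myofiber-associated 48-hr replicate 7 (3), and the highest without dispersed 48-hr replicate 1 (16), myofiber-associated 72-hr replicate 4 (13 and 11) and the pooled array (11).

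No paired analysis was possible because the replicate numbers are shared only between groups of different culture and time, which are not compared.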
